A study of Capra hircus with 2 samples.

Results

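The miR-200 and miR-141 family was measured as 5 mature miRNAs, miR-200a, miR-200b, miR-200c, miR-141 and miR-429, in the small RNA of goat mammary gland. The tissue came from Laoshan dairy goats (Capra hircus) about 4 years old in the third lactation, taken by surgery at 90 days postpartum (peak lactation) and at 210 days postpartum (late lactation). RNA of 5 goats was pooled for each stage, and the sources do not make clear whether the same goats were sampled at both stages. Each pool was sequenced as 1 library, with no treatment and no genetic change, so there was no replicate and no test between stages. The stage and the library cannot be told apart. The peak library held 19044002 clean reads and the late library 7385833. Clean reads were 98.5% of the high-quality reads of the peak library and 73.9% of those of the late library, which carried 14.03% reads with the 5′ adaptor against 0.0494%.

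A read was counted for a member when it contained nt 2 to 17 of that miRNA, a stretch of bases that differs between all 5 members. Of 659118 distinct sequences (tags) in both libraries together, 1420 contained such a stretch, 890 in peak and 926 in late lactation. Levels are reads per 1000000 clean reads (RPM), and intervals are exact 95% binomial intervals, which cover counting error only, because PCR copies were not removed. One read was worth 0.0525 RPM in peak and 0.135 RPM in late lactation, and a count of 0 allowed up to 0.158 and 0.406 RPM.

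Members of this family are known for being abundant in epithelial cells and nearly missing from mesenchymal cells. They repress ZEB1 and ZEB2, transcription factors that switch off E-cadherin, and the ZEB proteins in turn repress both miRNA clusters. A miRNA finds its targets mainly through its seed, the bases at nt 2 to 8, so members that share a seed share most predicted targets, while members of 1 cluster are cut from a common primary transcript. In the RefSeq annotation of goat assembly ARS1.2, the genes MIR429, MIR200A and MIR200B stood in a row between TTLL10 and C16H1orf159, and MIR141 and MIR200C stood side by side between PHB2 and PTPN6.

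The most abundant tag of each member is shown because the 5 miRNAs differ by so few bases, with the seed in capitals. The members of the first cluster come first.
miR-200b: tAATACTGcctggtaatgatga
miR-200a: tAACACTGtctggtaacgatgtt
miR-429: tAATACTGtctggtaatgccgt
miR-200c: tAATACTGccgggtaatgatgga
miR-141: tAACACTGtctggtaaagatggc

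The seed AATACTG was shared by miR-200b, miR-200c and miR-429, and the seed AACACTG by miR-200a and miR-141. Each cluster thus held both seeds. Counted from the 5′ end and written from the first-named member to the second, miR-200b and miR-200c differed within nt 2 to 17 only by T11G. The seed partners miR-200a and miR-141 differed there only by C17A, and miR-200b and miR-429 only by C9T.

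miR-200c, the most abundant member, was the only one far above the rest in both libraries. It gave 459938 reads in peak lactation, or 24151 RPM (24082 to 24220), and 86349 reads in late lactation, or 11691 RPM (11614 to 11769). Its level was therefore 2.07-fold lower in the late library, with a late to peak log2 ratio of -1.05 (-1.06 to -1.04). Among groups of tags that share nt 2 to 17, miR-200c was the 10th most abundant in peak and the 12th in late lactation.

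miR-141, its neighbour in the genome, went the other way. Its 46699 reads in peak lactation came to 2452 RPM (2430 to 2474) and its 35503 reads in late lactation to 4807 RPM (4757 to 4857). The log2 ratio was 0.97 (0.95 to 0.99), 1.96-fold higher in late lactation and just under the 2-fold mark. Its place in the order of abundance went from 39 to 22.

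In the other cluster the 3 members had 3 different ratios. miR-200b was nearly level between the libraries, with 3325 RPM (3299 to 3351) in peak and 3298 RPM (3257 to 3340) in late lactation, with a late to peak log2 ratio of -0.01 (-0.03 to 0.01). miR-200a had 1300 RPM (1284 to 1316) in peak and 1074 RPM (1051 to 1098) in late lactation, with a late to peak log2 ratio of -0.28 (-0.31 to -0.24). The counting intervals of miR-200b overlapped between the libraries, and those of miR-200a did not. miR-429, the least abundant member, had 266 RPM (259 to 274) in peak and 126 RPM (118 to 135) in late lactation, with a late to peak log2 ratio of -1.08 (-1.18 to -0.98), or 2.11-fold lower.

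**Figure D1:**
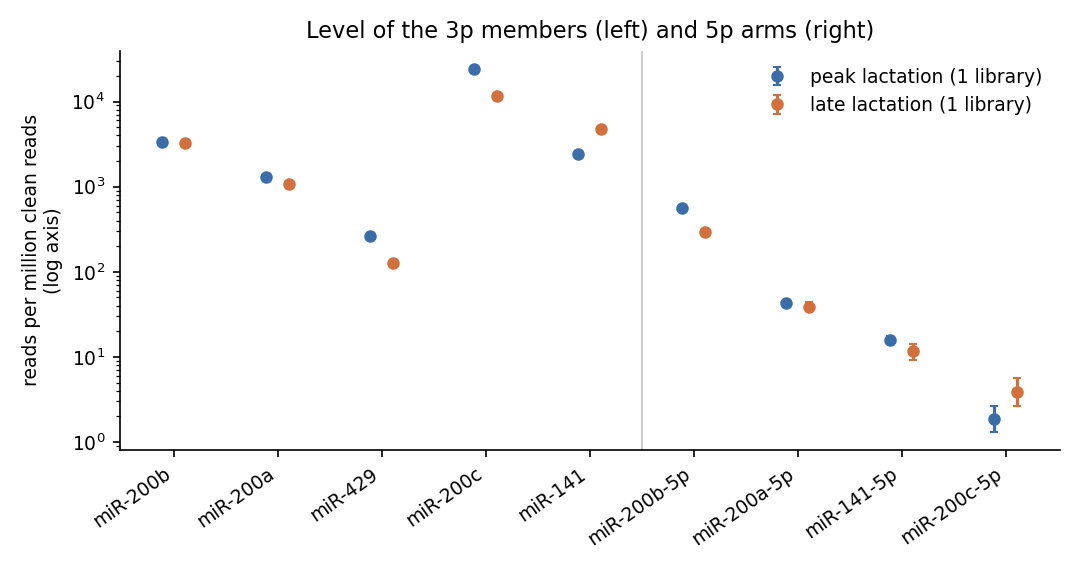
Level of the 5 members and of 4 5p arms in RPM on a log axis, with 1 point per library and bars for the exact 95% counting interval. miR-200c lies at 24151 RPM in peak and 11691 RPM in late lactation, and miR-141 is the 1 member whose late point lies clearly above its peak point.

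The order of the members differed between the libraries. In peak lactation it was miR-200c, miR-200b, miR-141, miR-200a and miR-429. In late lactation miR-141 stood above miR-200b, and the other places were as before. No pair of neighbours in either order had overlapping counting intervals, but the spread between animals is not known.

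At the 2-fold mark, 2 of 5 members (miR-200c and miR-429) were lower in late lactation and 0 of 5 were higher. All 3 members near the mark changed sides when scaled to totals without the 10 most abundant tags, with miR-141 past it at 1.06 and miR-200c and miR-429 under it at -0.96 and -0.99. Over all 7324 groups of tags with at least 1 RPM in a library, 26.4% were at least 2-fold lower and 39.8% at least 2-fold higher in late lactation. For 26175 single tags with at least 1 RPM the shares were 40.1% lower and 30.7% higher. Among the 445 groups with at least 100 RPM in a library, which all 5 members reached, 33.3% were at least 2-fold lower and 25.8% at least 2-fold higher. Changes of this size were thus common between the libraries, and with 5 members these counts single out nothing particular to them. The median log2 ratio over all groups was 0.37, and over those with at least 100 RPM it was -0.39; the median of the members was -0.28.

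Summed over its 3 members, the cluster of miR-200b, miR-200a and miR-429 had 4891 RPM in peak and 4499 RPM in late lactation, with a late to peak log2 ratio of -0.12 (-0.14 to -0.10). The cluster of miR-200c and miR-141 had 26603 RPM and 16498 RPM, with a late to peak log2 ratio of -0.69 (-0.70 to -0.68). Counting only the printed tags turned the direction of the first sum, to 0.19. That near-level sum was mostly that of miR-200b, and the lower sum of the other cluster was that of miR-200c, since miR-141 was higher. All 5 members together came to 31494 RPM in peak and 20997 RPM in late lactation, which was 3.15% and 2.10% of clean reads, with a late to peak log2 ratio of -0.58 (-0.59 to -0.58). In bulk tissue, fewer epithelial cells and less of these miRNAs per cell cannot be told apart.

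Within the clusters the balance of the partners moved more than the sums. In peak lactation there were 9.85 reads of miR-200c for each read of miR-141, and in late lactation 2.43. The ratio of miR-141 to miR-200c was 0.102 (0.101 to 0.103) and 0.411 (0.406 to 0.416), 4.05-fold higher in the late library. For miR-200a to miR-200b it was 0.391 (0.385 to 0.397) in peak and 0.326 (0.317 to 0.334) in late lactation. This pair stayed closest to its peak balance, with a log2 change of -0.26. The ratio of miR-429 to miR-200b was 0.0801 (0.0778 to 0.0824) in peak and 0.0383 (0.0358 to 0.0408) in late lactation, a log2 change of -1.07. These ratios are within a library, so the scaling to clean reads does not enter them.

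**Figure D2:**
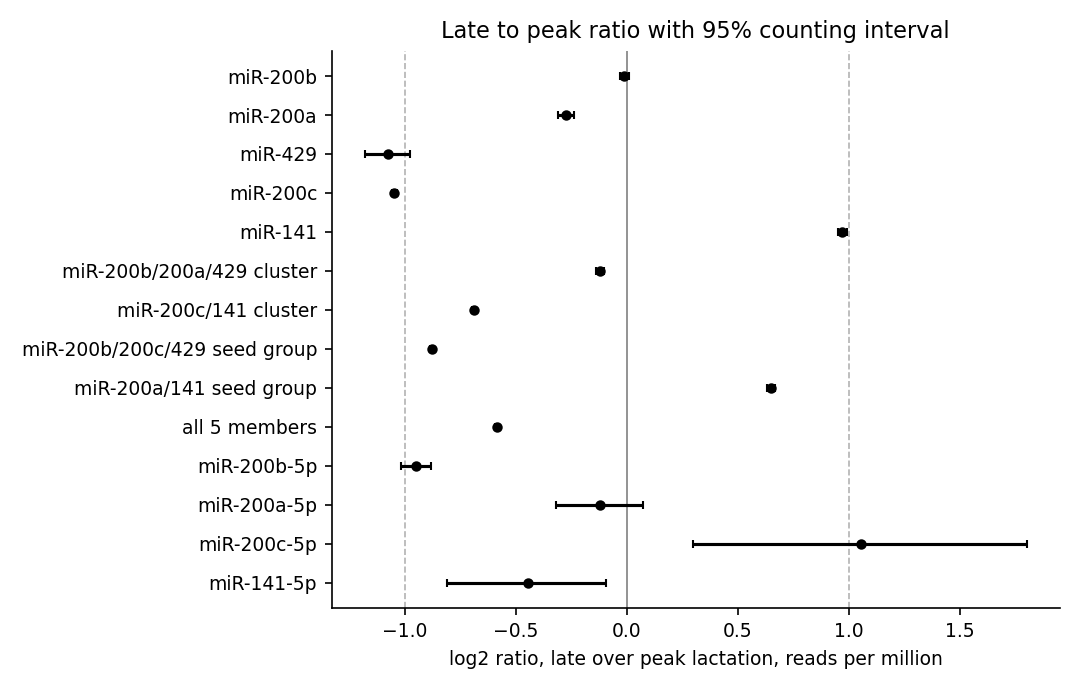
Log2 ratio of late over peak lactation for each member, each cluster, each seed group, the 5 members together and the 5p arms, with exact 95% counting intervals and dashed lines at 2-fold. miR-141 lies at 0.97 and its cluster partner miR-200c at -1.05, while the sums lie between.

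By seed, the 2 groups went in opposite directions. The AATACTG group (miR-200b, miR-200c and miR-429) had 27742 RPM in peak and 15116 RPM in late lactation, with a late to peak log2 ratio of -0.88 (-0.89 to -0.87). The AACACTG group (miR-200a and miR-141) had 3752 RPM and 5881 RPM, with a late to peak log2 ratio of 0.65 (0.63 to 0.67). Within it miR-141 was higher and miR-200a lower in late lactation. Neither group passed the 2-fold mark, but counting only the printed tags put the AATACTG group past it at -1.07.

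The makeup of the family followed. miR-200c held 76.7% (76.6 to 76.8) of the family's reads in peak and 55.7% (55.4 to 55.9) in late lactation. miR-141 held 7.79% (7.72 to 7.85) in peak and 22.9% (22.7 to 23.1) in late lactation. What miR-200c lost in share went largely to miR-141 and, to a smaller extent, to miR-200b, which held 10.6% and 15.7%. miR-200a held 4.13% and 5.12%, and miR-429 0.845% and 0.601%. The AACACTG seed made up 11.91% (11.83 to 11.996) of the family's reads in peak and 28.0% (27.8 to 28.2) in late lactation.

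**Figure D3:**
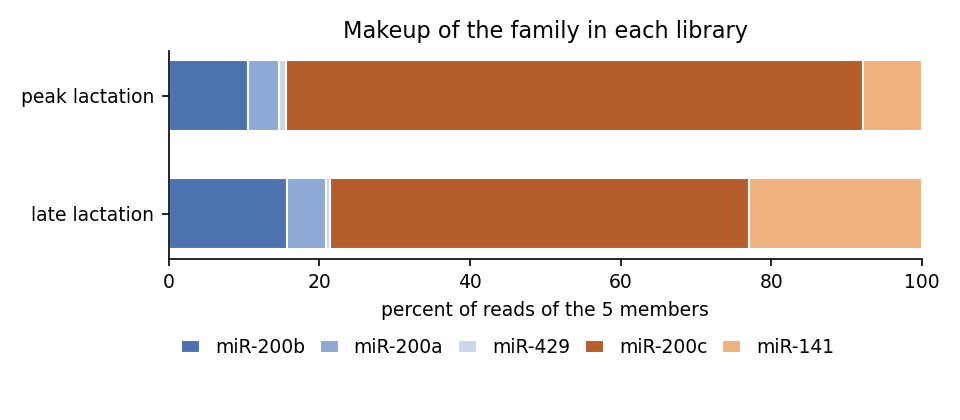
Share of each member in the reads of the 5 members, as a percent, with 1 bar per library. The miR-200c segment is 76.7% wide in peak and 55.7% wide in late lactation, and the miR-141 segment 7.79% and 22.9%.

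A miRNA hairpin also yields a product of its other arm, here the 5p arm, usually the less stable strand. The 5p arm was found for 4 members and is shown because the 5p arms of miR-200b and miR-200a share the seed ATCTTAC, which no 3p arm has. The 5p arm of miR-429 was not analysed here.
miR-200b-5p: cATCTTACtgggcagcattgga
miR-200a-5p: cATCTTACcggacagtgctgga
miR-200c-5p: cGTCTTACccagcagtgtttgg
miR-141-5p: cATCTTCCagcacagtgttgg

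miR-200b-5p was the most abundant of them, with 10730 reads in peak and 2156 in late lactation. That was 563 RPM (553 to 574) and 292 RPM (280 to 304), with a late to peak log2 ratio of -0.95 (-1.02 to -0.88). Its own 3p arm was level between the libraries at -0.01. There were 5.90 (5.78 to 6.02) reads of the 3p arm for each read of the 5p arm in peak and 11.3 (10.8 to 11.8) in late lactation.

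miR-141-5p was lower in late lactation although miR-141 was higher. It had 302 reads or 15.9 RPM (14.1 to 17.8) in peak and 86 reads or 11.6 RPM (9.31 to 14.4) in late lactation, with a late to peak log2 ratio of -0.45 (-0.81 to -0.10). The 3p to 5p ratio of miR-141 was 155 (138 to 174) in peak and 413 (334 to 516) in late lactation. For miR-200a the 5p arm was close to level, at 42.5 RPM (39.7 to 45.6) in peak and 39.1 RPM (34.7 to 43.9) in late lactation. The late to peak log2 ratio of this arm was -0.12 (-0.32 to 0.08). The 3p arm of miR-200a was somewhat lower in late lactation, at -0.28, with 30.6 and 27.4 reads for each read of the 5p arm. The 5p arm of miR-200c was nearly missing, with 36 and 29 reads beside 459938 and 86349 of the 3p arm. Its log2 ratio of 1.05 had an interval from 0.30 to 1.80. Of the 4 5p arms, 1 was at least 2-fold higher, on this small count, and 0 were at least 2-fold lower. miR-200b-5p, at -0.95, lay just under the mark. Over all 7324 groups of tags, 39.8% were at least 2-fold higher and 26.4% at least 2-fold lower. The counts of the 5p arms thus single out nothing particular to them.

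By free energy of the duplex, 3 of 4 5p arms paired most strongly with the 3p arm of their own name. The exception was miR-200a-5p, at -25.8 kcal/mol with miR-200a and -26.5 kcal/mol with another member. The energies of miR-200b-5p were closer still, at -22.2 kcal/mol with miR-200b and -22 kcal/mol with another member.

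The ends of the reads differed between members and between libraries. Positions are counted from the first base of the tags printed above. Reads of miR-141 that started at nt 1 ended at nt 21 in 38.4% (38.0 to 38.9) of cases in peak and in 10.5% (10.2 to 10.8) in late lactation. Those ending at nt 23 made up 42.7% (42.2 to 43.1) and 57.4% (56.8 to 57.9). Peak lactation thus held a short and a long form of miR-141 in about equal amounts, and late lactation mostly the long one.

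In RPM, the miR-141 reads ending at nt 21 were lower in late lactation, 936 RPM against 494 RPM, with a late to peak log2 ratio of -0.92 (-0.98 to -0.87). Those ending at nt 22, 23 and 24 were higher, with log2 ratios of 1.60, 1.38 and 2.86. The nearly 2-fold higher level of miR-141 was therefore carried by its longer forms. The 3 most abundant miR-141 tags in both libraries were the same, the printed one and its forms shorter by 1 and 2 bases:
miR-141, 21 nt: tAACACTGtctggtaaagatg
miR-141, 22 nt: tAACACTGtctggtaaagatgg
miR-141, 23 nt: tAACACTGtctggtaaagatggc

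The 21-nt tag had 17339 reads in peak and 3510 in late lactation, and the 23-nt tag 17941 and 18392. In RPM the short tag was lower in late lactation, at a log2 ratio of -0.94, and the long tag higher. The 23-nt tag alone had a log2 ratio of 1.40 (1.37 to 1.43).

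miR-200a, the seed partner of miR-141, also had a lower share at nt 21 in late lactation, by fewer percentage points but with a larger log2 ratio in RPM. Its reads ending at nt 21 made up 27.8% (27.2 to 28.4) in peak and 11.5% (10.8 to 12.3) in late lactation, with a late to peak log2 ratio of -1.57 in RPM. Those ending at nt 22 made up 19.4% and 28.0%. For miR-200b the share ending at nt 21 was 21.05% (20.72 to 21.38) and 14.52% (14.07 to 14.98), and for miR-429 it was 34.75% (33.43 to 36.08) and 26.97% (24.11 to 29.96). The share at nt 21 was thus lower in late lactation in 4 of 5 members. The exception was miR-200c, which hardly used that end, at 1.59% (1.55 to 1.62) and 1.75% (1.66 to 1.84). A lower share at nt 21 was not always a move to longer reads. For miR-200b the share ending at nt 24 was also lower in late lactation, 19.4% and 12.4%. Its share ending at nt 20 or before was higher, 0.602% and 1.98%. The share at nt 21 was not counted for other groups of tags.

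miR-200c was the most uniform member. Reads ending at nt 23 made up 77.9% (77.8 to 78.0) in peak and 69.5% (69.2 to 69.8) in late lactation, and reads ending at nt 22 made up 19.6% and 26.3%. Its printed tag alone was 76.3% of its reads in peak and 66.4% in late lactation. The printed tag of miR-200b was only 32.7% and 46.1% of the reads of that member.

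**Figure D4:**
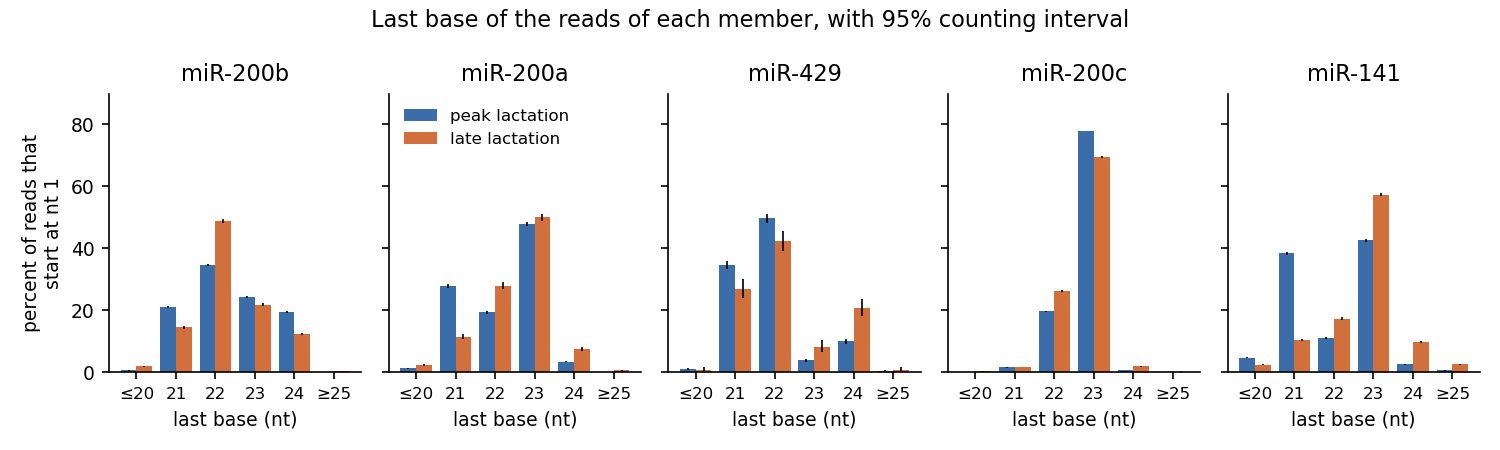
Percent of the reads starting at nt 1 by their last base, for each member, with 1 bar per library and 95% counting intervals. The bar at nt 21 is lower in late lactation for miR-200b, miR-200a, miR-429 and miR-141, most of all for miR-141 (38.4% and 10.5%), and low in both libraries for miR-200c.

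The mean last base of miR-141 was nt 21.99 in peak and nt 22.68 in late lactation, 0.69 nt further. For miR-200a it was 0.26 nt further, for miR-200c 0.06 nt less and for miR-200b 0.12 nt less. The direction for miR-200b turned, to 0.11 nt further, when reads beyond the printed tag were left out. Over 241 groups of tags with at least 1000 reads in each library the median difference was -0.12 nt, and 33.6% ended further in late lactation. miR-141 stood at percentile 95.02 and miR-200a at percentile 85.89 of these groups, while miR-200b (51.5) and miR-200c (57.7) lay near the middle. miR-429 had too few late reads to be set beside them.

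Among the counted reads, starts were far more uniform than ends, which matters because the start fixes the seed. Reads starting after nt 2 were not counted for a member. Those starting at nt 3 or 4 came to at most 0.633% of a member's counted reads in peak and 0.809% in late lactation (miR-200b). Between 95.2% and 99.4% of the reads of each member started at nt 1 in peak and between 95.2% and 98.5% in late lactation. miR-200b had the largest share starting at nt 2, at 4.72% (4.56 to 4.89) in peak and 3.54% (3.31 to 3.78) in late lactation, against 0.287% to 1.36% in the other members in either library. A read starting at nt 2 has a seed shifted by 1 base.

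1 adenosine of miR-200b was read as guanosine more often than the other adenosines of the members. Among its reads that started at nt 1, the adenosine at nt 5, inside the seed, was read as guanosine (A5G) in 1742 reads beside 60260 unchanged ones in peak lactation, 2.81% (2.68 to 2.94). In late lactation it was 388 beside 23182, or 1.65% (1.49 to 1.82). The share was lower in late lactation and the counting intervals were apart. Cytosine or thymine at that base was read in 6 reads and 0 reads. The most abundant tag with this change had 624 reads in peak and 90 in late lactation, and nt 5 is in capitals here:
miR-200b with A5G: taatGctgcctggtaatgatg

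The other members have an adenosine at nt 5 too, and there A5G stood at 0.00919% in miR-200c, 0.0108% in miR-141, 0.0204% in miR-200a and 0.119% (6 reads) in miR-429 in peak lactation. Over the 25 other adenosines of nt 2 to 17 of all members that could be read, the median share of guanosine was 0.0183% in peak and 0.0130% in late lactation, and the highest was 0.119% and 0.218%. Another kind of change came near to it. As a share of the most abundant tag's reads, A5G of miR-200b stood at 2.50% in peak and 1.46% in late lactation. T14G of miR-141 stood at 1.52% and 0.696%. The tag with T11G of miR-200b stood at 1.51% and 1.72%, but it holds the nt 2 to 17 of miR-200c and was counted for miR-200c. Within nt 1 to 22 it differs from miR-200c only at nt 22, so its member of origin cannot be told. The change at nt 5 of miR-200b was singled out after its values were seen. Whether another goat locus encodes this sequence was not tested, since no goat genome sequence was searched here.

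**Figure D5:**
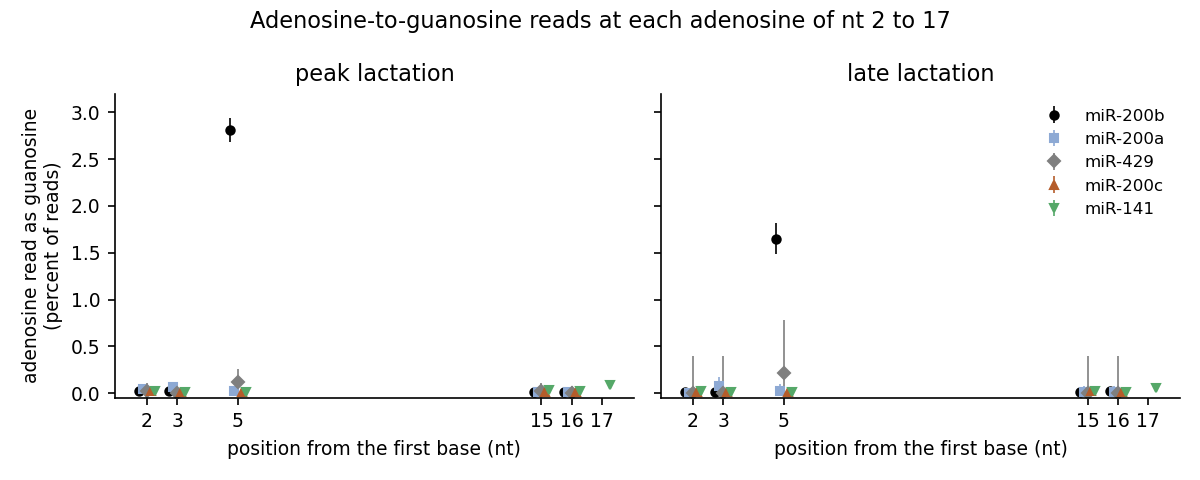
Percent of reads with guanosine in place of adenosine at each adenosine of nt 2 to 17 of the 5 members, 1 panel per library, with 95% counting intervals. miR-200b at nt 5 lies at 2.81% in peak and 1.65% in late lactation, and every other point lies at or below 0.218%.

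Members that differ by 1 base could have been mistaken for each other, so the bases at nt 18 to 22 were read as a second label in reads of at least 22 nt. Reads with the nt 2 to 17 of miR-200b but the end of miR-200c made up 0.116% (0.0878 to 0.152) in peak and 0.114% (0.0712 to 0.172) in late lactation. In miR-200c reads the end of miR-200b made up 0.0915% and 0.251%. For miR-141 with the end of miR-200a the share was 0.250% and 0.102%, and for miR-200a with the end of miR-141 0.0634% and 0.196%. The largest share was that of miR-429 reads with the end of miR-200b, 1.33% (0.966 to 1.79) in peak and 4.08% (2.70 to 5.88) in late lactation. In the reads that could be checked, such mixed reads were thus rare in the 4 abundant members and less rare in miR-429. The check was narrow. Within nt 18 to 22, miR-200b and miR-200c differed only at nt 22, and so did miR-200a and miR-141. Reads under 22 nt could not be checked, and 38.4% of the miR-141 reads starting at nt 1 in peak lactation ended at nt 21. Tags with 1 mismatch in nt 2 to 17 would have added 1.82% to the family's reads in peak and 1.87% in late lactation.

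Other miRNAs of the tissue were read the same way, from lists of miRNAs typical of a cell type, with 23 of 24 found. Of 6 other epithelial miRNAs, 3 were at least 2-fold lower in late lactation and 2 at least 2-fold higher. Their median log2 ratio was -0.84. Among them miR-183, miR-96 and miR-182 belong to the same cluster, so they are not separate entries. Over all 7324 groups of tags, 26.4% were at least 2-fold lower and 39.8% at least 2-fold higher, with a median of 0.37. Among groups with at least 100 RPM in a library the shares were 33.3% and 25.8%, with a median of -0.39. The log2 ratios were -1.93 for miR-203, -1.10 for miR-183, -1.03 for miR-182, -0.64 for miR-96, 1.41 for miR-205 and 3.12 for miR-375. Those of miR-182 and miR-183 were like that of miR-200c, and that of miR-205 was on the side of miR-141 (0.97). There were 30.38 reads of miR-200c per read of miR-182 in peak and 30.04 in late lactation. Of the listed epithelial miRNAs, miR-182 had the log2 ratio nearest to that of miR-200c, so an even balance follows from that choice. Against the rest of the list the balance was less even, since the log2 ratios ran from -1.93 to 3.12. miR-375 had 623 RPM in peak and 5417 RPM in late lactation. The summed epithelial list therefore came to 1994 and 6614 RPM, and the family had 15.8 and 3.17 reads for each read of that list.

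The lists for other cells had higher medians than the members. Fibroblast and smooth muscle miRNAs had a median log2 ratio of 0.81 (2 of 5 higher, 0 lower; 190244 and 334021 RPM summed, mostly miR-143), white blood cell miRNAs 1.85 (3 of 4 higher, 0 lower; 1198 and 1545 RPM) and red blood cell miRNAs 1.004 (2 of 3 higher, 0 lower; 1888 and 3285 RPM). Striated muscle miRNAs had a median of 0.89 (1 of 3 higher, 0 lower; 2681 and 1499 RPM, mostly miR-1). Of the endothelial pair, which are arms of 1 hairpin, miR-126-3p was at -1.05 and miR-126-5p at 1.28 (13342 and 7686 RPM summed). Beside the shares over all groups given above, counts on lists this small single out no cell type. The part of the listed cells in the ratios of the members was not tested.

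Of 85 groups with at least 1000 RPM in a library, the 5 with ratios nearest to that of the summed family (-0.58) were miR-191 (-0.56), let-7b (-0.56), miR-21 (-0.55), miR-379 (-0.54) and 1 group without a miRNA name (-0.56). This likeness rests on a single ratio from 2 libraries.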

How the data were processed

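Small RNA libraries of goat mammary gland, 1 for each lactation stage, were sequenced by the authors on an Illumina/Solexa instrument. Low-quality reads, reads without the 3′ adaptor or insert, reads with the 5′ adaptor, poly(A) reads and reads under 18 nt were removed. The authors deposited, for each library, the raw counts of each distinct clean tag and how many reads (counts) each filter removed or left. The tools of these filters and their versions were not named in the sources used here; the versions the study gives belong to its later steps, which were not used.

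A member was the stretch of nt 2 to 17 behind its known seed whose summed reads lay nearest, in both libraries, to those listed under its name in the study's table of known miRNAs (within 0.5 on the log2 scale). That table served for names only. miR-142-5p had no such match. No table of mature miRNAs was at hand, so the background groups were built by taking tags in order of abundance and joining all that held their nt 2 to 17. Gene neighbours came from RefSeq (ARS1.2).

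With 1 library per stage no test was run; a change was called at 2-fold, with exact binomial intervals (scipy 1.17.1, Python 3.11.15). Tags at 0 were set to 0.01 RPM in background counts only. Duplex energies came from RNAduplex 2.7.2. The scripts were tested on simulated counts. The named miRNAs were the members, their 5p arms, the marker lists and the 5 groups of at least 1000 RPM nearest in ratio to the family. Members and lists were chosen with earlier results of these data known. Alternatives were TMM factors (edgeR 4.0.16), median-ratio factors (DESeq2 1.42.0), other totals and other ways to match tags. The groups of tags, their background at 100 RPM and the reads starting at nt 3 or 4 were added after seeing the data. The authors' genome mapping, annotation and qRT-PCR were not used here.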

Additional observations from a re-analysis of the deposited data

How the results depend on the processing

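No paired analysis was possible because each stage had 1 library and the labels carry no replicate numbers. TMM factors, totals of 18 to 30 nt, tags of at least 2 reads, reads starting at nt 3 or 4 and reads with start and end near those of the printed tag left every ratio of a member, cluster, seed group and the family within its counting interval. The total over miRNAs of a reference table was not run, and the printed tag stood in for the reference sequence. Totals without the 10 most abundant tags added 0.09 to every log2 ratio. They gave 1.06 for miR-141, now past 2-fold, -0.96 for miR-200c and -0.99 for miR-429, now under it, 0.074 for miR-200b and -0.19 for miR-200a. For the cluster of miR-200b and that of miR-200c they gave -0.035 and -0.604, for the AATACTG and AACACTG groups -0.79 and 0.73, and for the family -0.50. Median-ratio factors gave -0.037 for miR-200b, -1.07 for miR-200c, 0.95 for miR-141, -0.15 and -0.71 for the clusters, -0.90 and 0.62 for the seed groups and -0.61 for the family.

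Counting only the printed tag gave 0.48 for miR-200b, -1.40 for miR-429, -1.25 for miR-200c and 1.40 for miR-141. The clusters came to 0.19 and -0.92, the seed groups to -1.07, now past 2-fold, and 0.95, and the family to -0.78. The log2 change of miR-141 to miR-200c was then 2.65, of miR-200a to miR-200b -0.76, of miR-429 to miR-200b -1.885, and of 3p to 5p 1.48 for miR-200b and 2.74 for miR-141. miR-200c then held 87.0% and 63.05% of the family and miR-141 4.45% and 20.2%. These values differ from those of all reads because the forms of a member had different ratios. Reads that held nt 1 to 20 gave 0.997 for miR-141, 2.045 for miR-141 to miR-200c, 77.4% and 56.3% for miR-200c and 7.57% for miR-141 in peak lactation, and 1 mismatch gave 76.4% for miR-200c in peak lactation.

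The mean last base of miR-200b was 0.11 nt further in late lactation when reads beyond the printed tag were left out. Of the groups of tags, 505 were 2-fold higher and 558 lower at 10 RPM, 115 and 148 at 100 RPM, and 114201 and 191692 with no filter, where most held very few reads. For single tags it was 1437 and 1946 at 10 RPM. miR-200c-5p and the late reads of miR-429 were limited by depth.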

Other observations

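Reads with a base before nt 1 differed between the libraries. An adenosine stood before nt 1 in 0 reads of the family in peak lactation and in 682 reads in late lactation, 0.440% of the family's reads. It was seen in all 5 members (152 reads of miR-200b, 54 of miR-200a, 6 of miR-429, 204 of miR-200c and 266 of miR-141). A cytosine stood there in 1440 reads (0.240%) and 876 reads (0.565%). Whether the hairpins encode either base at that place was not tested. The same was counted over 241 groups of tags with at least 1000 reads in each library. Their median share with an adenosine before nt 1 was 0% in peak and 0.0910% in late lactation. In 68.0% of the groups the share was higher in late lactation. The late library was also the one with 14.03% of reads removed for the 5′ adaptor. The part of the adaptor in the base before nt 1 was not tested.

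Of the bases found behind the most abundant tag, some were more frequent in late lactation and others less. Whether the hairpin encodes these bases was not tested. The most frequent, a cytosine at nt 23 of miR-200b, made up 22.3% of that member's reads in peak and 17.99% in late lactation. miR-141 with an adenosine at nt 24 made up 0.923% of its reads in peak and 4.76% in late lactation, and with a thymine 1.55% and 4.36%. miR-200b with an adenosine at nt 23 made up 0.452% and 2.39%, and miR-200a with a thymine at nt 24 0.973% and 4.10%. For miR-429 a tag of 24 nt ending in 2 adenosines had 30 reads in peak and 83 in late lactation, with a late to peak log2 ratio of 2.83 (2.22 to 3.49) where the member as a whole was at -1.08. Its sequence was as follows, with the seed in capitals.
miR-429, 24 nt: tAATACTGtctggtaatgccgtaa

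Single-base differences from the most abundant tag were most frequent at nt 14 in miR-200c, miR-141 and miR-200a in both libraries, which in each is a thymine. In miR-200c they reached 0.884% of the printed tag's reads in peak and 1.10% in late lactation, against a median over nt 2 to 17 of 0.0356% and 0.0392%. T14G made up most of them in miR-141, with 272 reads in peak and 128 in late lactation, while in miR-200c T14G (1477 and 352 reads), T14A (1012 and 163) and T14C (614 and 118) were all present. In miR-200b nt 14 was raised too, at 0.512% and 0.553% against a median of 0.0459% and 0.0490%, but nt 5 and nt 11 stood higher. miR-429 was not counted by position.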
